A study of Rattus norvegicus with 12 samples.

Results

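The Notch pathway genes examined here are 9 genes: the transcriptional effectors Hes1, Hes5, Hey1 and Hey2, the receptors Notch1 and Notch2, the ligands Jag1 and Dll1, and the feedback inhibitor Nrarp. The list was drawn up around Hes1, which was selected on its measured difference between siCon_IFNg_GW and siCon_IFNg, and each gene was read from the 1 row of the array table that the platform annotation pairs with it alone. All 9 of 9 listed genes had such a row, out of 18166 named genes. The cells were primary astrocytes from the cerebral cortex of Sprague-Dawley rats 1 day old, held in serum-free MEM for 2 days to deplete microglia and meningeal cells. Transcripts were measured on 12 arrays, 3 in each of 4 groups, with title numbers 1 to 3 in each. The group siSHP_IFNg_GW had SHP siRNA, IFN-γ and GW, siCon_IFNg_GW had control siRNA, IFN-γ and GW, siCon_IFNg had control siRNA and IFN-γ, and siCon had control siRNA alone. Treatment lasted 3 h, and every group had been transfected with an siRNA. No group had GW without IFN-γ or SHP siRNA without both, and the labels do not say what GW is or whether the 3 arrays of a group came from different cultures. The p-values therefore rest on array-to-array spread that could be purely technical.

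Notch receptors are cut by proteases when a ligand of the Delta or Jagged family on a neighbouring cell binds them, and the freed intracellular domain joins the DNA-binding protein RBPJ to switch on target genes. The best known targets are the Hes and Hey genes, which encode bHLH-Orange repressors. In the developing brain this pathway holds progenitors back from neuronal fate and favours glial fate, and Hes1 is also switched on quickly by other stimuli in many cell types. Nrarp is a Notch target whose product limits the activity of the intracellular domain.

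Promoter sequences are shown for 4 members because Hes1 and Dll1 stood in opposite order in the groups with and without GW, Hes5 is the other classical Hes target of Notch, and Jag1 followed the order of Hes1 in title numbers 2 and 3. Each is a stretch of 250 bases in GRCr8, which for Hes1, Dll1 and Jag1 ends just before the RefSeq gene start. The Hes5 window ends at 170804576, past the RefSeq gene start at 170804511, so its last bases lie inside the annotated gene. Capitals mark the letters TGGGAA, the core of the RBPJ motif, or the same core on the other strand, TTCCCA. The Hes1 window is chr11:84213046-84213295 on the minus strand, that of Dll1 is chr1:64993275-64993524 on the minus strand, that of Hes5 is chr5:170804327-170804576 on the plus strand and that of Jag1 is chr3:144894884-144895133 on the minus strand.
Hes1: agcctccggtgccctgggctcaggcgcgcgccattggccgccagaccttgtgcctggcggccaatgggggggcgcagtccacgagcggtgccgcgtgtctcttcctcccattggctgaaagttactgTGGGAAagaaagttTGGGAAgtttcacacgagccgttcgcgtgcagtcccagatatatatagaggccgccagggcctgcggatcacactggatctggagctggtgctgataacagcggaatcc
Dll1: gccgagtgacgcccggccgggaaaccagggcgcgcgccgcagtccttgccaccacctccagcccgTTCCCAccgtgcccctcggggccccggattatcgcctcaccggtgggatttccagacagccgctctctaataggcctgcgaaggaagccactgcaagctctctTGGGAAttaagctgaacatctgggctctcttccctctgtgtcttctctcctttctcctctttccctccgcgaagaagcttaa
Hes5: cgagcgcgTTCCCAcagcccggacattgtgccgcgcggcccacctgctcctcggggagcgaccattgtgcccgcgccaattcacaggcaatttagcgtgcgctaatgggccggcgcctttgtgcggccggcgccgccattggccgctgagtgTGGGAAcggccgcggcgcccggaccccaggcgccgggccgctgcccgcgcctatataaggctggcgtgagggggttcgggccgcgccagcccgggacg
Jag1: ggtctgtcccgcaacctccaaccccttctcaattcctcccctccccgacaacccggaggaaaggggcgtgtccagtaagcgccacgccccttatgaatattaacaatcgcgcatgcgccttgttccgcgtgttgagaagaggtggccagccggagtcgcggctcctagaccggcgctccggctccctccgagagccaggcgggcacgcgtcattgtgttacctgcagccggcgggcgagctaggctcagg
The Hes1 window held the core in the same orientation at -123 to -118 and at -109 to -104 from the gene start, with 8 bases between. Dll1 held it at -185 to -180 on the other strand and at -82 to -77, while the Jag1 window had no match. Hes5 held it at -242 to -237 on the other strand and at -98 to -93, counted from the end of its window and not from the gene start. Of the 8 members with a promoter entry, 4 held the core, the remaining one being Hey2; the entry for Hey1 is missing. Among 14505 promoters of genes on the array, 20.48% held it at least once and 2.5% at least at 2 places. The Hes1 window also held the N-box letters CACNAG, a site type that Hes proteins bind, at 4 places (both strands), the Notch1 window at 4, of which a pair overlaps, and the Nrarp window at 2. These are 3 of the 8 members, while 35.27% of promoters held it at least once and 7.7% at 2 or more places. No member held the AP-1 letters TGANTCA, found in 5.63% of promoters; these matches describe letters in a window and show no binding.

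Values are log2 expression, in which 1 unit is a doubling, and levels are compared only between arrays for the same gene. A gene was read as above background on an array when it exceeded the 95th percentile of 1342 olfactory and vomeronasal receptor genes there, which lay between 5.25 and 5.49. By this measure 8 members were above background on all 12 arrays, and Hes5 on 1 of 12. Dll1 went down to 5.61 in siSHP_IFNg_GW and 5.81 in siCon_IFNg_GW, and Nrarp to 5.61 in siCon, not far above it. This limits how far differences of Dll1 and Nrarp can be read. Astrocyte markers were present, 10 of 10 measured above background, and so were 13 of 13 microglia markers. Also above background were 8 of 9 meningeal and mural (not Lum), 8 of 9 oligodendrocyte lineage (not Mag) and 7 of 10 neuron markers (not Tubb3, Snap25 and Nefl). A level can therefore not be assigned to astrocytes alone, and fewer cells of a type cannot be told apart from less RNA per cell. Of 8 measured endothelial markers 4 were not above background, namely Cldn5, Tek, Emcn and Tie1. The siRNA target Nr0b2, the gene for SHP, was at 4.59 to 5.12 on all 12 arrays, below background, so the array gives no check of the knockdown. Arrays numbered 1 stood apart in many genes, so differences are also given within title numbers and without number 1.

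**Figure D1:**
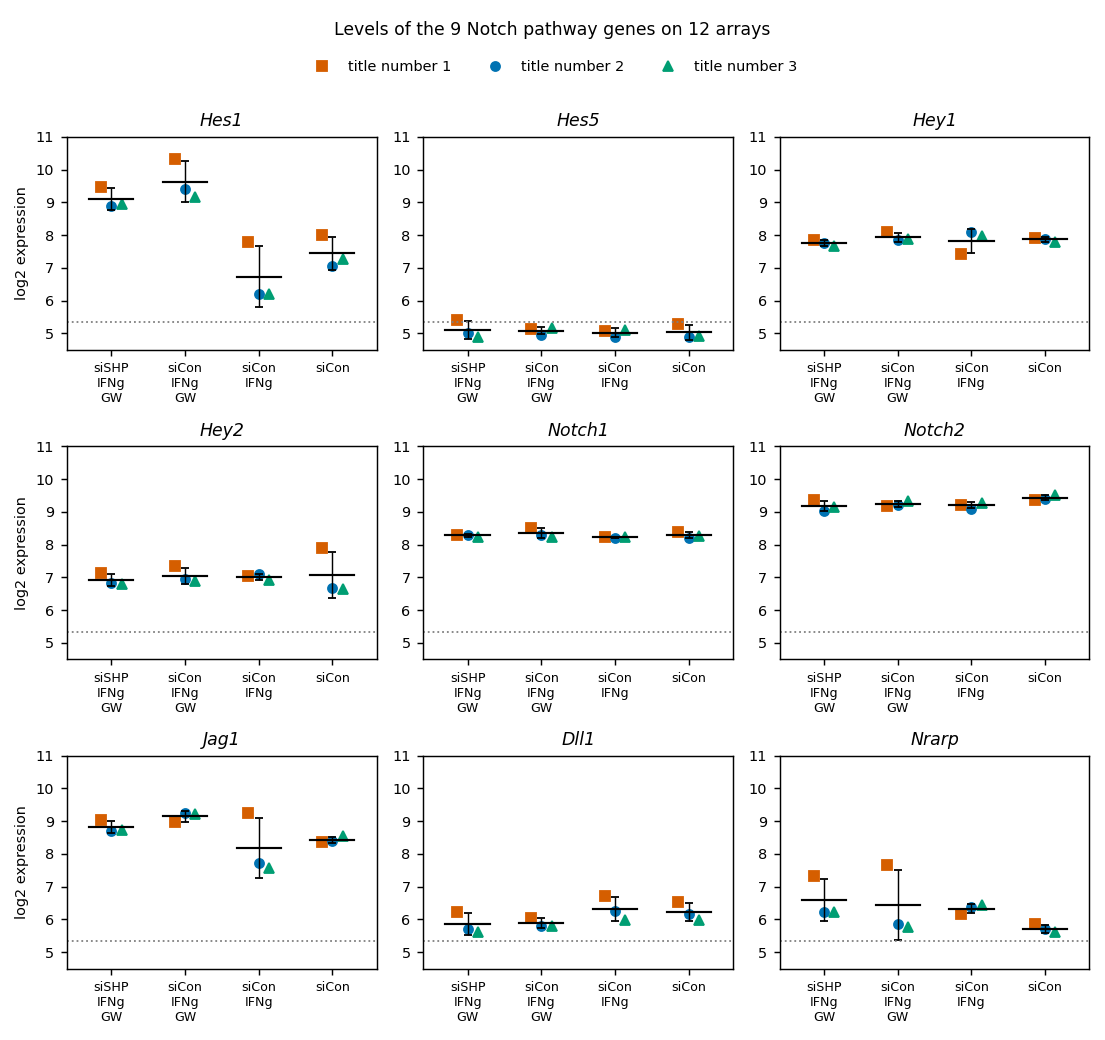
Log2 expression of each member on the 12 arrays (points; square, circle and triangle for title numbers 1, 2 and 3), with the group mean and SD (bar and whiskers, n = 3) and background at 5.34 (dotted line). Hes1 sits between 8.89 and 10.34 in both groups with GW, above all arrays without GW, while Hes5 lies near background throughout.

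Hes1 had the widest range of the 9, 4.15 log2 units over the 12 arrays. It was at 9.48, 8.89 and 8.95 in siSHP_IFNg_GW for title numbers 1, 2 and 3, at 10.34, 9.40 and 9.17 in siCon_IFNg_GW, at 7.80, 6.21 and 6.19 in siCon_IFNg and at 8.02, 7.07 and 7.27 in siCon. The 6 arrays with GW were all above the 6 without, and in each of the 3 title numbers the order was siCon_IFNg_GW, siSHP_IFNg_GW, siCon and siCon_IFNg from high to low. Neighbouring groups in that order overlapped in their arrays within the GW pair and within the pair without GW. The array numbered 1 was the highest in each group, by 0.56 above the mean of numbers 2 and 3 in siSHP_IFNg_GW, 1.06 in siCon_IFNg_GW, 1.60 in siCon_IFNg and 0.85 in siCon.

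The other effectors varied far less. Hey1, a bHLH-Orange repressor that acts in vessels and in the nervous system, averaged 7.77 ± 0.09 in siSHP_IFNg_GW, 7.94 ± 0.13 in siCon_IFNg_GW, 7.82 ± 0.36 in siCon_IFNg and 7.87 ± 0.07 in siCon (SD, n = 3 each). Its group means spanned 0.17, and all 4 groups overlapped. Hey2, its relative in heart and vessels, was at 7.13, 6.82 and 6.81 in siSHP_IFNg_GW, at 7.33, 6.95 and 6.88 in siCon_IFNg_GW, at 7.03, 7.09 and 6.92 in siCon_IFNg and at 7.90, 6.68 and 6.63 in siCon. The lone high value was siCon number 1, 1.24 above the mean of siCon numbers 2 and 3. Hes5, a main effector of Notch in neural progenitors, was at 4.88 to 5.40 on the 12 arrays, and no fold is given for it.

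The receptors were the steadiest members. Notch1 lay between 8.21 and 8.51 on the 12 arrays, with an SD over all of them of 0.09, against a median of 0.20 for the 12425 genes above background. Notch2 was at 9.35, 9.04 and 9.15 in siSHP_IFNg_GW, at 9.17, 9.21 and 9.34 in siCon_IFNg_GW, at 9.22, 9.09 and 9.28 in siCon_IFNg and at 9.37, 9.41 and 9.51 in siCon. All 9 arrays with IFN-γ were thus below the 3 siCon arrays for Notch2, by differences of group means of -0.25, -0.19 and -0.23, and these 3 differences share the siCon arrays.

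The 2 ligands differed from each other in pattern. Jag1, a ligand expressed by astrocytes and vascular cells, was at 9.03, 8.71 and 8.73 in siSHP_IFNg_GW, at 8.97, 9.24 and 9.23 in siCon_IFNg_GW, at 9.24, 7.73 and 7.57 in siCon_IFNg and at 8.37, 8.39 and 8.55 in siCon. Numbers 2 and 3 of siCon_IFNg were the lowest of all 12 arrays and its number 1 was as high as any array with GW. Dll1, a Delta ligand that Hes1 represses in mouse neural progenitors, was at 6.24, 5.71 and 5.61 in siSHP_IFNg_GW, at 6.06, 5.81 and 5.82 in siCon_IFNg_GW, at 6.71, 6.27 and 5.997 in siCon_IFNg and at 6.54, 6.17 and 5.99 in siCon. Within every title number both GW groups were below both groups without GW for Dll1.

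Nrarp was at 7.33, 6.22 and 6.23 in siSHP_IFNg_GW, at 7.67, 5.87 and 5.77 in siCon_IFNg_GW, at 6.16, 6.39 and 6.44 in siCon_IFNg and at 5.85, 5.71 and 5.61 in siCon. The 2 arrays numbered 1 with GW stood far above the rest, by 1.10 in siSHP_IFNg_GW and 1.85 in siCon_IFNg_GW over numbers 2 and 3 of the same group. Meningeal and mural markers were lower in the arrays numbered 1: their summed level, as log2, was 12.48 to 12.68 there, against 13.55 to 13.74 in numbers 2 and 3. Summed levels in number 1 were also lower, with no overlap, for endothelial markers (8.61 to 8.88, against 9.32 to 9.55), oligodendrocyte lineage markers (10.32 to 10.57, against 10.88 to 11.22) and astrocyte markers (13.71 to 13.97, against 14.06 to 14.21). Their part in these differences was not tested.

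**Figure D2:**
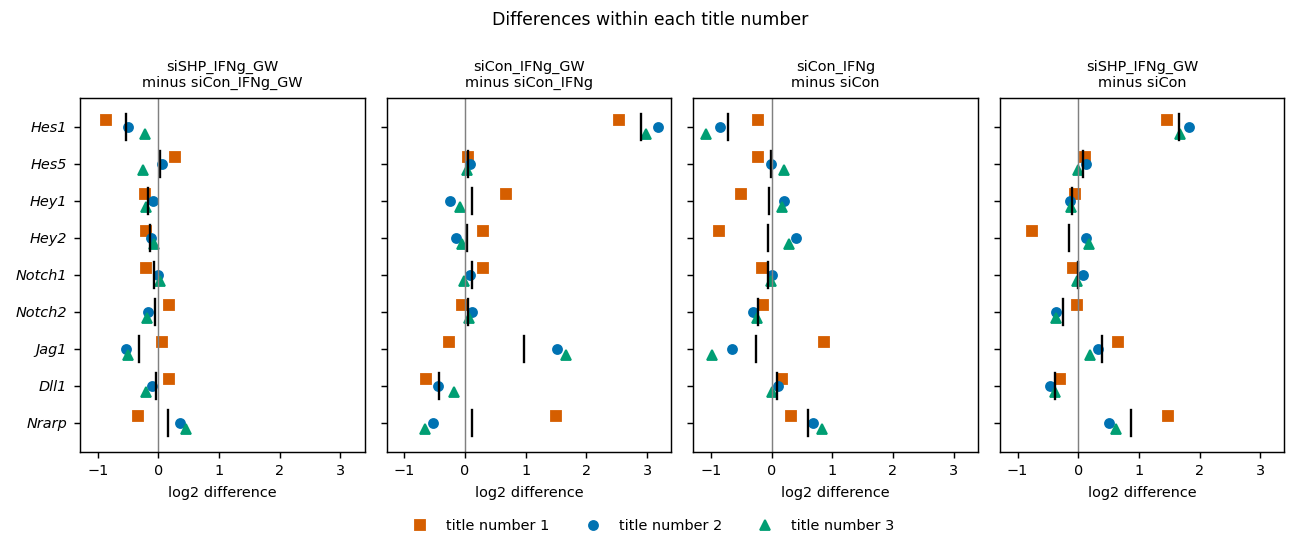
Log2 difference between 2 groups within each title number (points) and the difference of group means (vertical bar) for each member in 4 comparisons. Hes1 differs in the same direction in all 3 numbers of every comparison, while Jag1 and Nrarp in number 1 go against numbers 2 and 3 in the GW comparison (second panel). Every comparison but siSHP_IFNg_GW against siCon uses arrays of the contrast that selected Hes1.

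GW was added to IFN-γ in siCon_IFNg_GW, against IFN-γ alone in siCon_IFNg. Hes1 was selected on this contrast, so member values are a description with no test. Hes1 was higher by 2.90 ± 0.45 (SE, n = 3 per group), a 7.47-fold difference, and by 2.54, 3.18 and 2.98 in numbers 1, 2 and 3. Jag1 was 0.97 ± 0.34 higher, made up of -0.27, 1.51 and 1.67, and without number 1 it was 1.59 higher. Dll1 was lower in all 3 numbers, by -0.65, -0.45 and -0.18. Nrarp differed by 1.505 in number 1 and by -0.52 and -0.66 in numbers 2 and 3, so that its mean difference of 0.11 describes none of them. Differences of Notch1 and Notch2 were 0.12 and 0.04. Hey1 had 0.12, made up of 0.68, -0.24 and -0.08, and Hey2 had 0.04, made up of 0.30, -0.14 and -0.05, so that without number 1 both were negative (-0.16 and -0.10). Over all genes 0.886% had a limma adjusted p under 0.05 in this contrast and 15.3% had groups that did not overlap. Hes1 was the 1 member under both rules, which its selection fixed, and nothing is read from that count.

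The comparison of siSHP_IFNg_GW with siCon shares no array with that contrast, though the siRNA and the treatment differ together in it. Hes1 was 1.65 ± 0.45 higher (SE, n = 3 per group), with a 95% interval of the log2 difference of 0.66 to 2.64. The fold was 3.14, and Hes1 was higher by 1.46, 1.82 and 1.68 in numbers 1, 2 and 3. Its groups did not overlap, but it did not pass over all genes on group means alone (limma adjusted p = 0.117). With title number as a block it passed (limma adjusted p = 0.00132). It also passed without number 1, on numbers 2 and 3 of each group alone (1.75, limma adjusted p = 4.77e-05). The same held when siCon_IFNg number 1 was left out (limma adjusted p = 0.0336), an array outside the comparison that enters through the shared spread. Dll1 was lower by -0.38 ± 0.22, in all 3 numbers (-0.31, -0.46 and -0.38), and passed only with the block (limma adjusted p = 0.533, and 0.035 with the block). Nrarp was higher by 0.87 ± 0.45 (limma adjusted p = 0.471), of which number 1 gave 1.48 and numbers 2 and 3 gave 0.51 and 0.62; without number 1 it passed at 0.57 (limma adjusted p = 0.00467). Jag1 differed by 0.39 ± 0.34 with groups that did not overlap (limma adjusted p = 0.756), and Notch2 by -0.25 ± 0.10 (limma adjusted p = 0.329).

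In that comparison 0 of 9 members passed limma over all 12 arrays, against 1.2% of all genes, and 2 had an unadjusted p under 0.05 (Hes1 and Notch2), against 12.8% of genes. With the block 2 passed, against 8.64% of genes, and without number 1 also 2, against 10.7%. Groups did not overlap for 4 members (Hes1, Jag1 and Nrarp higher, Notch2 lower), against 19% of genes. The median over the members was -0.01 with 4 of 9 positive, beside -0.03 and 42.4% positive over all genes. Microglia markers were lower in the same comparison, 13 of 13 negative with a median of -0.44; their summed level was 12.42 to 12.64 in siSHP_IFNg_GW and 12.35 to 12.52 in siCon_IFNg_GW, against 12.85 to 13.02 in siCon_IFNg and 12.81 to 13.38 in siCon. None of their defining genes was below background, and their part in the member differences was not tested.

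The comparison of siCon_IFNg with siCon asks what IFN-γ alone changed. It shares the siCon_IFNg arrays with the contrast that put Hes1 forward, so a lower Hes1 in siCon_IFNg is likewise favoured by the choice of gene. Hes1 was lower by -0.72 ± 0.45 (SE, n = 3 per group; limma adjusted p = 1), in all 3 numbers (-0.22, -0.85 and -1.08). Jag1 had -0.26 ± 0.34 (limma adjusted p = 1), with 0.87 in number 1 and -0.66 and -0.98 in numbers 2 and 3, and without siCon_IFNg number 1 alone it had -0.79 (limma adjusted p = 0.049). Nrarp was higher in all 3 numbers, by 0.31, 0.67 and 0.83, with groups that did not overlap (0.61 ± 0.45, limma adjusted p = 1). Without number 1 Hes1 fell by 0.97, Jag1 fell by 0.82 and Nrarp rose by 0.75 (limma adjusted p = 0.00162, 0.00177 and 0.00142). Over all 12 arrays 0 members passed limma, against 0.121% of genes, and 1 had an unadjusted p under 0.05 (Notch2), against 5.5% of genes; with the block 0 passed as well, against 0.936%, and without number 1 the 3 named passed, against 4.71% of genes. Groups did not overlap for 2 members, Notch2 and Nrarp, against 9.3% of genes.

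The comparison of siSHP_IFNg_GW with siCon_IFNg_GW asks what SHP siRNA changed under IFN-γ and GW. It shares the siCon_IFNg_GW arrays, whose high Hes1 values entered the selection, so a lower Hes1 in siSHP_IFNg_GW is favoured by the choice of gene and is no independent evidence. Hes1 was lower by -0.53 ± 0.45 (SE, n = 3 per group; limma adjusted p = 1), by -0.86, -0.51 and -0.22 in numbers 1, 2 and 3, with a 95% interval of -1.52 to 0.46. Jag1 had -0.32 ± 0.34 (limma adjusted p = 1), and -0.52 without number 1, where it passed (limma adjusted p = 0.0377). Nrarp had -0.34 in number 1 and 0.35 and 0.46 in numbers 2 and 3. Here 0 members passed limma, as did 0% of genes, and 0 members had an unadjusted p under 0.05, against 416 of 18166 genes; with the block 0 members passed too, and without number 1 Jag1 alone did, against 1.47% of genes. The groups overlapped for all 9 members, while 6.47% of genes did not overlap.

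Differences in a further pair of comparisons share arrays with the contrast that put Hes1 forward and are given as values. In siCon_IFNg_GW against siCon, Hes1 was higher by 2.18 ± 0.45 (SE), Jag1 by 0.71 ± 0.34 and Nrarp by 0.71 ± 0.45, the last with 1.82 in number 1 and 0.15 and 0.17 in numbers 2 and 3. In siSHP_IFNg_GW against siCon_IFNg, Hes1 was higher by 2.37 ± 0.45 and Jag1 by 0.64 ± 0.34, with -0.21, 0.98 and 1.17 in numbers 1, 2 and 3.

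Of 87 other genes listed around the pathway, 75 were measured, and they were tested by limma on group means. The list holds family relatives and target genes besides parts of the pathway, so a gene on it need not act in Notch signalling. With GW added to IFN-γ, Bhlhe40, a bHLH-Orange factor of the circadian clock, was the 1 of 75 that passed (2.08 ± 0.39 SE, limma adjusted p = 0.037). Over all genes 0.886% passed there, so nothing is read from that count. This contrast selected Hes1, and the list was chosen with earlier results of these data known. The p-values of Bhlhe40 in it are therefore no independent evidence. Bhlhe40 was at 11.91, 11.33 and 11.22 in siCon_IFNg_GW, against 10.50, 8.92 and 8.78 in siCon_IFNg, and the groups did not overlap. The count was 0 when any 1 of 9 of the 12 arrays was left out, all but number 1 of siCon_IFNg_GW, siCon_IFNg and siCon, and Bhlhe40 passed with the block (limma adjusted p = 0.00152). The 75 genes gave 8 with the block, against 6.55% of all genes, and 13 without number 1, against 11.5%. In siSHP_IFNg_GW against siCon 1 of 75 passed, against 1.2% of all genes, and nothing is read from that count either. It was Myc, a growth regulator and Notch target in T cells (2.22 ± 0.34, limma adjusted p = 0.0136). Myc was at 9.74, 9.58 and 9.78 in siSHP_IFNg_GW, against 8.25, 7.09 and 7.09 in siCon. The count there was 0 when number 2 or 3 of siSHP_IFNg_GW or of siCon was left out, and Myc passed with the block (limma adjusted p = 0.000512). In siCon_IFNg against siCon and in siSHP_IFNg_GW against siCon_IFNg_GW, 0 passed limma, against 0.121% and 0% of all genes. In each, 1 of 75 had an unadjusted p under 0.05, against 5.5% and 2.29% of all genes. Without number 1 the counts past limma were 8 and 2 of 75, against 4.71% and 1.47% of all genes.

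The groups of listed genes did not share a direction. Other bHLH-Orange factors had a median of 0.09 with GW added to IFN-γ over 7 genes, 5 of them positive, beside 0.00 for all genes. Receptor processing and glycosylation genes had -0.15 in that comparison, with 1 of 10 positive, and -0.25 in siSHP_IFNg_GW against siCon, with 0 of 10 positive, beside -0.03 for all genes. Of genes named after their values were seen, Psenen, a subunit of γ-secretase, the enzyme that frees the intracellular domain, had -0.53 there (limma adjusted p = 0.0585, and 0.0154 with the block). The coactivator gene Maml1 had 0.53 (limma adjusted p = 0.201, and 0.0106 with the block) and Numb, an inhibitor of Notch, 0.34 (limma adjusted p = 0.113, and 0.0269 with the block). Other receptors and ligands had medians between -0.09 and 0.05 over 11 genes in the 4 comparisons. Genes that Hes factors repress in neural cells could hardly be read, since 2 of the 6 measured had a mean above background, and no change is reported for them.

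Dtx3l, also named after its values were seen, a ubiquitin ligase of the Deltex family, followed a different order from Hes1. It was at 9.29, 9.64 and 9.68 in siSHP_IFNg_GW, at 8.91, 7.78 and 7.74 in siCon_IFNg_GW, at 9.23, 10.31 and 10.03 in siCon_IFNg and at 8.89, 8.01 and 7.84 in siCon. With GW added to IFN-γ it differed by -1.71 (limma adjusted p = 0.0743, and 0.0279 with the block), where without number 1 it had -2.40. Between siSHP_IFNg_GW and siCon_IFNg_GW it differed by 1.39 and did not pass over all arrays (limma adjusted p = 1) or with the block (limma adjusted p = 0.72), while without number 1 it differed by 1.90 and passed (limma adjusted p = 9.49e-05).

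The genes most like Hes1 were sought by Pearson correlation over the 12 arrays, after the mean of each title number was subtracted, among 12424 genes above background. The 8 highest were Mdm2, an inhibitor of p53, with r of 0.995, the clock gene Per1 with 0.994, Id3 with 0.992, Urb2 and Ddx50 with 0.99 each, and Id1, Mideas and Wdr20 with 0.989, 0.989 and 0.987. Id1 and Id3 encode inhibitors of bHLH factors. The 12 points share 4 treatments and 3 title numbers, so these values describe a shared order over the same arrays. Among the members the same measure was 0.786 for Jag1, 0.506 for Notch1, 0.297 for Nrarp, 0.163 for Hes5, -0.027 for Hey1, -0.138 for Hey2, -0.271 for Notch2 and -0.904 for Dll1. Without the subtraction Dll1 had -0.325, and 3 of the 8 genes (Mdm2, Mideas and Wdr20) were still among the first 8.

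**Figure D3:**
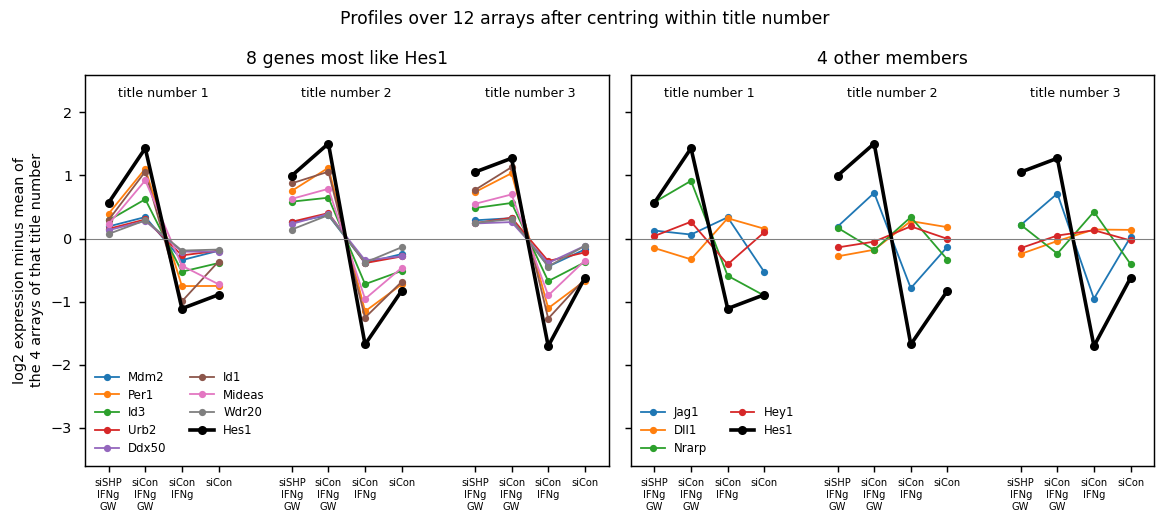
Log2 expression minus the mean of the 4 arrays of the same title number, for Hes1 (black) with the 8 genes most like it (left) and with Jag1, Dll1, Nrarp and Hey1 (right). In numbers 2 and 3 the 8 genes follow the order of Hes1 with smaller differences, while in number 1 Mideas is higher in siCon_IFNg than in siCon, Dll1 runs against it, and Jag1 follows it in numbers 2 and 3 but not in number 1.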

How the data were processed

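RNA prepared with Trizol was hybridised as biotin-labelled cDNA, per the labels' protocols. The authors deposited log2 expression values for 36685 rows on 12 arrays. Summarisation and normalization were not given in the sources used here. Log base 2 is read from their range, 1.01 to 13.43. The platform annotation paired 18511 rows with 1 gene, and the row with the highest mean was kept where a gene had several, which left 18166 genes. Groups and title numbers came from the titles. Differences were fitted with limma 3.58.1 in R 4.3.3 on 4 group means over all arrays, without a block, and adjusted by Benjamini-Hochberg over all genes. Same-numbered arrays of different groups deviated together (correlations of 0.43 to 0.77 over genes), so the title numbers were read as pairs, and the block was an alternative. Deviations from a group mean cancel out within the group. Number 1 standing apart in every group would therefore alone give such correlations in numbers 2 and 3. The check cannot show that numbers 2 and 3 are true pairs. The other alternatives left out arrays or changed the scaling, the background filter, the rows, the variance prior or the groups fitted. The fit was tested on simulated data for siSHP_IFNg_GW against siCon, with independent noise on each array. Those data had no title-number effect, so the test does not cover the shared deviations seen here. Promoters are from RefSeq (GRCr8). Members, lists and tests were chosen with earlier results of these data known. Genes named were the members, listed genes past the threshold and the 8 most like Hes1; Psenen, Maml1, Numb and Dtx3l were named after their values were seen. Figures were drawn with matplotlib 3.10.9. With 3 arrays a group, the number of arrays limits the precision.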

Additional observations from a re-analysis of the deposited data

How the results depend on the processing

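Hes1 kept its direction in all 4 comparisons under every alternative run. All of them but siSHP_IFNg_GW against siCon use arrays of the contrast that selected Hes1. Their direction was favoured by that choice, so its persistence is no independent evidence. Leaving out 1 array at a time gave Hes1 differences of 1.46 to 1.94 in siSHP_IFNg_GW against siCon, 2.55 to 3.43 in siCon_IFNg_GW against siCon_IFNg, -1.25 to -0.43 in siCon_IFNg against siCon and -0.76 to -0.18 in siSHP_IFNg_GW against siCon_IFNg_GW. With the replicate block, Hes1 in siSHP_IFNg_GW against siCon was again 1.65 and now passed. The members past the threshold were 2 there and 2 in siCon_IFNg_GW against siCon_IFNg. The wider list had 8, 8 and, in siCon_IFNg against siCon, 1. Of all genes 8.64%, 6.55% and 0.936% passed with the block, in the same order. The block changed no other member call. Member counts in siCon_IFNg_GW against siCon_IFNg rest on the contrast that selected Hes1, under each setting, and are no sign of stability. Without replicate 1, Hes1 passed at 1.75 in siSHP_IFNg_GW against siCon and at -0.97 in siCon_IFNg against siCon. Members past the threshold were then 2 in siSHP_IFNg_GW against siCon, 3 in siCon_IFNg_GW against siCon_IFNg, 3 in siCon_IFNg against siCon and 1 in siSHP_IFNg_GW against siCon_IFNg_GW, and the wider list had 14, 13, 8 and 2 in the same order. Calls over all genes rose as well, to 10.7%, 11.5%, 4.71% and 1.47% in the same order. Leaving out 1 array at a time, members numbered 0 to 1, 0 to 2, 0 to 1 and 0 to 0, and wider genes 0 to 4, 0 to 5, 0 to 0 and 0 to 0, in that order. Fitting only the 2 groups compared left 0 members and 0 wider genes in siCon_IFNg_GW against siCon_IFNg, and centring arrays on their medians 0 wider genes; in siSHP_IFNg_GW against siCon the wider list had 3 with only the 2 groups, 2 with only genes above background and 3 with a variance trend. No share of all genes was taken for these fits or for those without 1 array, so nothing is read from their counts. Without subtraction of title-number means, 3 of the 8 genes most like Hes1 were shared.

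Several small differences changed sign. In siCon_IFNg_GW against siCon_IFNg, without replicate 1 Hey1 had -0.16 and Hey2 -0.10, and Nrarp had -0.59. In siCon_IFNg against siCon, without replicate 1 Hes5 had 0.10, Hey1 0.18 and Hey2 0.35, and quantile normalization gave Hey2 0.0029. In siSHP_IFNg_GW against siCon_IFNg_GW, without replicate 1 Hes5 had -0.10 and Notch1 0.0055. In siSHP_IFNg_GW against siCon, without replicate 1 Hey2 had 0.15 and Notch1 0.033, and Notch1 had 0.0017 with centred arrays and 0.011 with quantile normalization. Over fits without 1 array or without all of replicate 1, siCon_IFNg against siCon gave -0.078 to 0.12 for Hes5, -0.18 to 0.18 for Hey1, -0.27 to 0.36 for Hey2, -0.82 to 0.0495 for Jag1 (past the threshold at -0.82 and, without siCon_IFNg replicate 1, at -0.79) and -0.10 to 0.25 for Dll1. In siSHP_IFNg_GW against siCon_IFNg_GW the ranges were -0.12 to 0.13 for Hes5, -0.24 to 0.0057 for Hey2, -0.13 to 0.018 for Notch1, -0.18 to 0.012 for Notch2, -0.24 to 0.0777 for Dll1 and -0.21 to 0.77 for Nrarp. In siSHP_IFNg_GW against siCon they were -0.0763 to 0.20 for Hes5, -0.37 to 0.26 for Hey2 and -0.0434 to 0.0451 for Notch1. The cause was not tested. Hes5 near background limits what its values can show.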
